A study of Saccharomyces cerevisiae with 72 samples.

Results

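The 32 ends of the 16 nuclear chromosomes of budding yeast (Saccharomyces cerevisiae) were followed separately through S phase. An end was the set of 1-kb bins no further than 20 kb from the outermost listed bin on one side of a chromosome, and it is named by chromosome and side, so that IV-L is the left end of chromosome IV. The ends held 576 of the 11277 bins listed in all 44 tables. A replication time was obtained for 31 of the 32 ends. VIII-R kept 2 bins, neither with a replication time, and XIV-R rested on 5 bins. The tip beyond the outermost bin listed in any table was not analysed here. It measured 0 to 23.0 kb, counted to the chromosome start at left ends and to the last annotated gene at right ends.

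All cells were W303, MATa and without SWE1, a kinase gene of the cell cycle. In all of them the PP2A phosphatase subunit Cdc55 was fused to an auxin-inducible degron (AID), with osTir1 driven by the GPD1 promoter. They also had cse4delta covered by a tagged CSE4-HA6 copy. Strain A had PPH3 and SLD3-13myc, B had PPH3 and sld3-R(2A)-13myc, C had PPH3-AID and SLD3-13myc, and D had PPH3-AID and sld3-R(2A)-13myc. Sld3 is a protein that helps to start replication at origins, and Pph3 is the catalytic subunit of the phosphatase PP4. Cells were held in G1 with alpha factor, treated with auxin (IAA) during a shift to a higher temperature, and washed into medium with IAA. No strain had an intact PP2A-Cdc55, and how far each degron protein was depleted was not measured in these tables. Each strain was sampled at 11 time points from 15 to 80 minutes after release with 1 library each, so that no difference between strains has a replicate check and none carries a p-value.

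Chromosome ends carry telomeres and, next to them, repeated elements and gene families. In budding yeast many ends replicate late, and the telomere proteins Rif1 and Ku and the Sir silencing proteins are known to hold origins near them back. Ends are known to differ, because an end can be copied by a fork from an origin in its own repeats or from one further inside.

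The deposited value of a bin sets its DNA in S phase against that in G1, near 1 before replication and near 2 after it. Replication time is the minute at which the ratio, averaged over 5 kb and made monotone in time, crossed 1.5, and an end has the median over its bins. Strain A had a genome median of 32.8 minutes, B of 39.3, C of 36.3 and D of 44.1. An end is called early or late where it lay over 2 minutes before or after that median. The excess delay of an end is its median delay against another strain minus the genome median delay, which against A was 6.41 minutes for B, 3.53 for C and 11.1 for D. An end is called delayed above an excess of 2 minutes and spared below -2 minutes, which are names for values and not for a cause. For comparison the rest of the genome was divided into 515 tiles of 21 kb. The percentages called background below are taken over these tiles and the 31 ends together, 546 stretches. They were computed with the main settings only, so counts under other settings have no background beside them.

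Chromosome ends in strain A ranged from among the earliest stretches of the genome to among the latest. Of the 31 ends, 17 were late (54.8%, against a background of 39.4%) and 9 were early (29%, against a background of 37.5%), and 5 lay within 2 minutes of the genome. By relative timing, which does not use the scale factors, 7 ends were late and 7 early. The 7 early ends by this measure included II-L, which was not early in minutes, and left out II-R, III-L and XVI-R. That measure is an area on a narrower scale, with 4.07 at VI-R, which replicated 11.9 minutes after the genome median. The limit of 2 was kept for it, so its counts are not directly comparable with those in minutes. The median replication time of the ends was 35.4 minutes, with quartiles of 30.2 and 37.9 minutes, and their standard deviation of 5.22 minutes was close to the 5.40 minutes of the interior tiles. The late side was mostly left ends, with 11 of the 17, and the early side mostly right ends, with 7 of the 9. The median was 36.2 minutes over 16 left ends and 31.4 minutes over 15 right ends.

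The 4 earliest ends in A were XV-R at 25.3 minutes, XIII-R at 25.7, IX-R at 26.0 and I-R at 27.1. XV-R was earlier than 93.2% of all bins and XIII-R earlier than 91.0%. The XV-R stretch (sacCer3 chromosome XV, 1054001 to 1075000) carries FIT2 and FIT3, cell wall mannoproteins for iron uptake, and that of XIII-R (chromosome XIII, 896001 to 917000) carries FET4, a low-affinity iron transporter, and ADH6, an alcohol dehydrogenase. IX-R (chromosome IX, 418001 to 439000) carries LYS1, an enzyme of lysine synthesis, and HYR1, a thiol peroxidase. The ratio of XV-R in A was 1.03 at 20 minutes, 1.44 at 25 and 1.93 at 30, and that of IX-R was 0.85, 1.32 and 1.90 at the same minutes. These ends were copied before the median ratio of the genome had reached 1.37 at 30 minutes.

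The other 5 early ends were XIII-L at 27.8 minutes, V-R at 28.8, III-L at 29.0, XVI-R at 29.9 and II-R at 30.6. Of the 9 early ends, 6 stayed early under each alternative that gave a value. XVI-R did so under 10 of 15 alternatives other than left-out time points, and II-R under 5 of 15. Within 2 minutes of the genome lay XIV-R at 31.4 minutes, II-L at 31.7, VII-R at 33.5, VII-L at 33.8 and VIII-L at 34.6. III-L held the stretch around the silent mating cassette HML, although its genes HMLALPHA2 and HMLALPHA1 (chromosome III, 12386 to 13809) fell between listed bins. V-R begins beside DMC1, a meiotic recombinase gene.

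The 4 latest ends in A were VI-R at 44.7 minutes, I-L at 42.0, XIV-L at 41.2 and XI-R at 40.3. VI-R was earlier than only 2.9% of bins, and I-L than 6.0%. VI-R (chromosome VI, 249001 to 270000) carries PRE4, a subunit of the proteasome, and HXK1, a hexokinase. XIV-L (chromosome XIV, 16001 to 37000) carries RPD3, a histone deacetylase known to influence when origins fire, and XI-R carries FLO10, a flocculation gene. In A the ratio of VI-R moved only from 1.20 at 20 minutes to 1.30 at 40, then reached 1.50 at 45 and 2.06 at 60. The genome median in A already stood at 1.84 at 40 minutes. These 4 ends stayed over 2 minutes later than the genome, and the 4 earliest over 2 minutes earlier, under each alternative that gave a value, left-out time points included.

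Between these and the genome median lay 13 further late ends. XII-R replicated at 34.8 minutes, V-L at 35.4, XV-L at 35.7, XII-L and X-R at 36.1 and XVI-L at 36.3. IX-L replicated at 37.2 minutes, VI-L at 37.3, III-R at 37.9 and XI-L at 38.0. X-L replicated at 39.4 minutes, IV-L at 39.6 and IV-R at 39.7. XII-R carries RIF2, whose product binds telomeres, and III-R carries HMRA1 of the silent cassette HMR (chromosome III, 293835 to 294321) at its inner limit. Neighbours in this order mostly differed by under 1 minute, which is less than the spread between the bins of an end, and are not ranked here. Of all 17 late ends, 7 stayed late under each alternative that gave a value. III-R reached -2.03 under 1 of them.

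**Figure D1:**
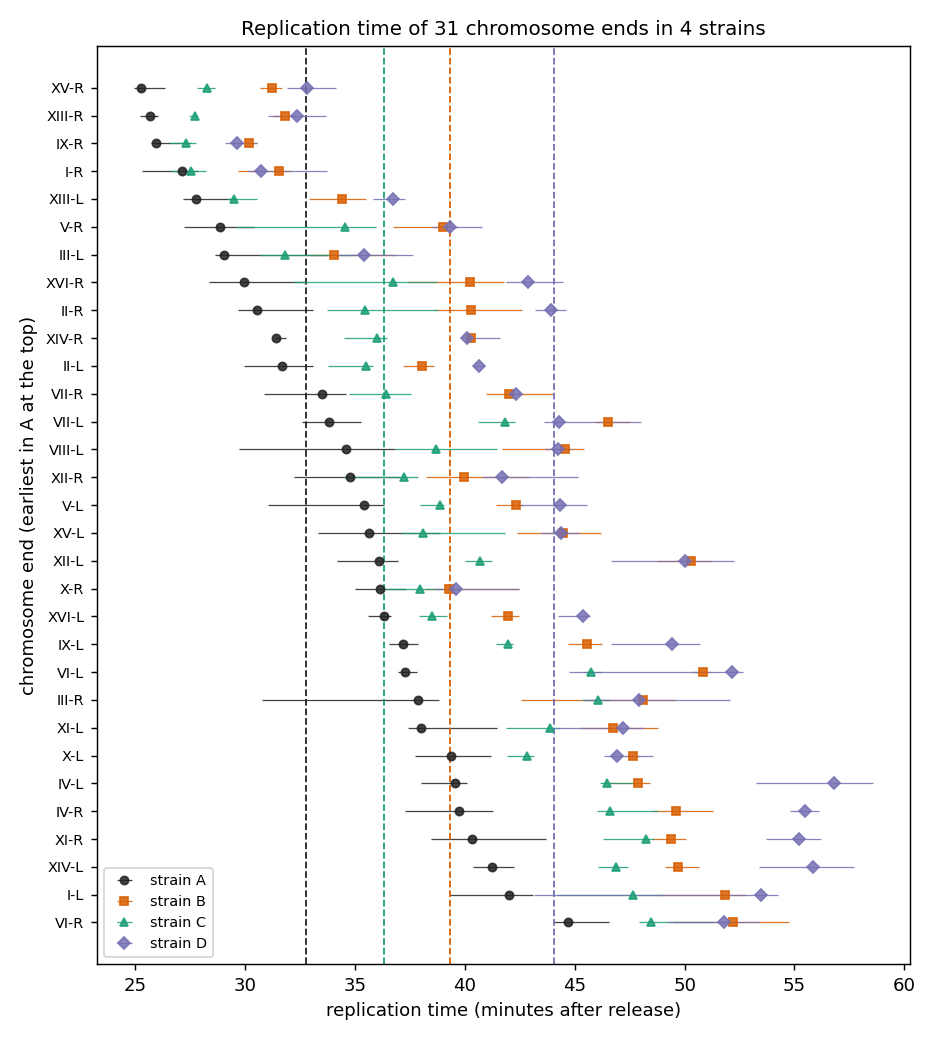
Replication time in minutes after release (x axis) of 31 chromosome ends (y axis, earliest in A at the top) in strains A, B, C and D, 1 culture each; points are medians over the bins of an end, bars its quartiles, and dashed lines the genome medians of 32.8 (A), 39.3 (B), 36.3 (C) and 44.1 minutes (D). The order from XV-R at 25.3 minutes to VI-R at 44.7 minutes in A is largely kept in the other strains.

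The order of the ends was largely kept in the 3 other strains. Over the 31 ends, Pearson's r of replication time with A was 0.927 in B, 0.955 in C and 0.909 in D, as a description over ends that share the libraries. Over the interior tiles the r with A was 0.947 in B, 0.946 in C and 0.850 in D. IX-R was the earliest end of the 3 strains, at 30.2 minutes in B, 27.3 in C and 29.7 in D. VI-R was the latest in B and C, at 52.2 and 48.5 minutes, and IV-L the latest in D, at 56.8 minutes.

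Within an end, replication time ran both ways. Of the 25 ends with bins both within 5 kb of the tip and at 16 to 20 kb from it, 7 had a tip over 5 minutes earlier than the inner part in A, and 5 a tip over 5 minutes later. The earliest bin of an end in A lay within 5 kb of the tip in 10 of 31 ends and at 16 to 20 kb in 15. In III-R the bins within 5 kb of the tip replicated at 30.5 minutes and those at 16 to 20 kb at 40.0 minutes. In III-L, the other end of the same chromosome, the order was opposite, with 38.1 minutes at the tip and 28.5 minutes inside.

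The difference of tip minus inner part in A was -8.13 minutes in VIII-L, -8.08 in XII-R and -7.72 in XVI-R, where the tip came first. It came after it by 6.81 minutes in X-R, 6.22 in XV-L and 5.72 in XI-L. The direction stayed the same in B, C and D at each of these 6 ends. It differed between strains at 7 of the 25 ends, namely IV-L, IV-R, V-L, VII-L, X-L, XII-L and XIII-R. IV-R went from 5.01 minutes in A to -3.44 in D, and V-L from -6.59 to 1.65. At XII-L the value was -3.84 minutes in A, -3.38 in C and -7.40 in D, but 4.05 minutes in B, where the tip came last.

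**Figure D2:**
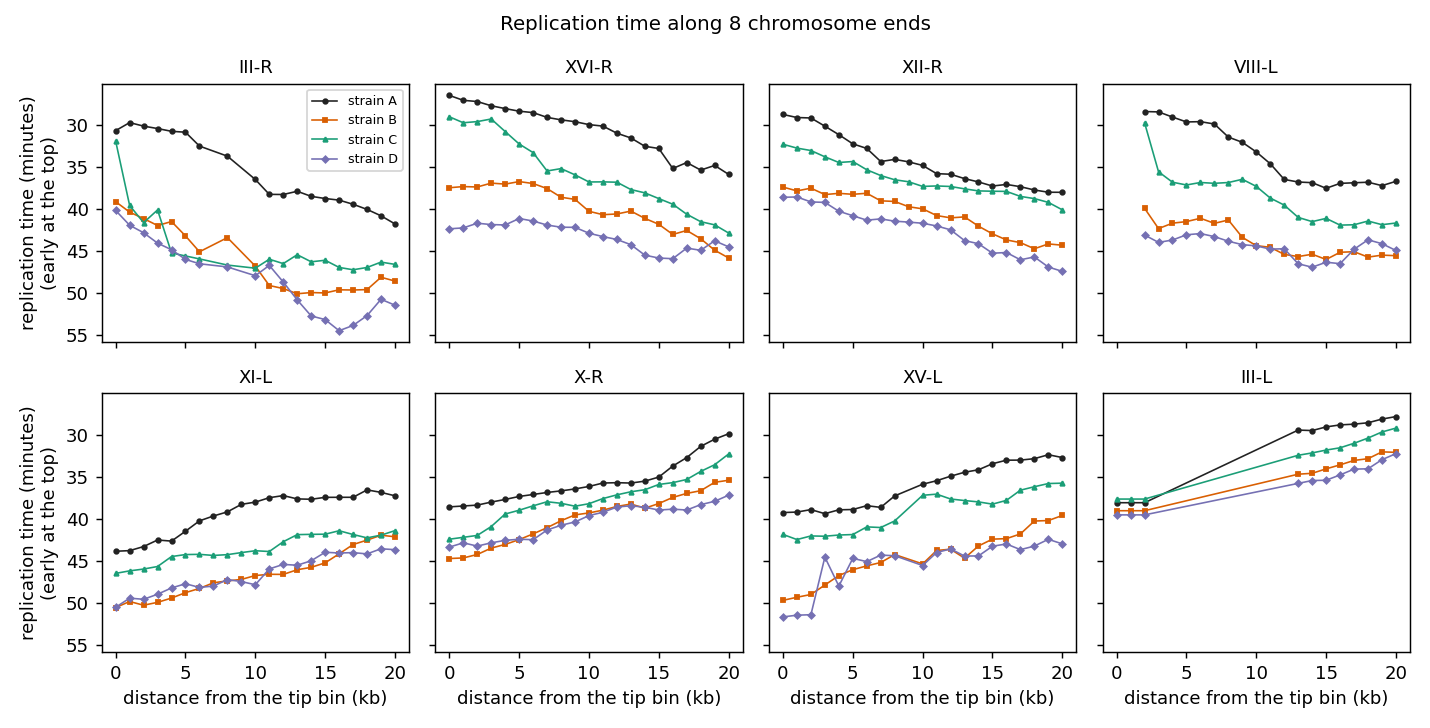
Replication time in minutes (y axis, early at the top) against distance from the tip bin in kb (x axis) at 8 ends in strains A to D; each point is a 1-kb bin after the 5-kb running mean, and lines join listed bins, with none in III-L between 2 and 13 kb. In A the tip leads in III-R, XVI-R, XII-R and VIII-L, and trails in XI-L, X-R, XV-L and III-L (38.1 minutes at the tip against 28.5 inside).

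With sld3-R(2A) and Pph3 present (B against A), 16 of 31 ends were delayed beyond the genome (51.6%, against a background of 16.1%) and 3 were spared (9.68%, against a background of 15%). The median excess delay of the ends was 2.08 minutes, against -0.09 minutes over the interior tiles, and 22 of 31 values were above 0. Delayed ends came from all parts of the order in A, with 3 early, 4 middle and 9 late ends, and were 8 left and 8 right ends. The ratio at 15 minutes exceeded the library median at 27 of 31 ends in A (median 1.03) and at 14 of 31 in B (median 1.00). With the 15-minute library as denominator, 8 ends were delayed and the median excess was 0.66 minutes. With scale factors common to the strains, 10 ends were delayed. The size of the result moved with the processing, and the part of the offset in this was not tested.

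The largest excess delays in B were 6.71 minutes at both XII-L and VI-L and 5.54 minutes at VII-L. XII-L, which carries MHT1 and MMP1 of S-methylmethionine use, moved from 36.1 minutes in A to 50.3 in B, and its ratio at 40 minutes was 1.71 in A and 1.31 in B. VI-L, which carries the dihydroxyacetone kinase gene DAK2, moved from 37.3 to 50.9 minutes, with ratios at 40 minutes of 1.59 and 1.38. VII-L, which carries ADH4, moved from 33.8 to 46.5 minutes, with ratios at 40 minutes of 1.71 and 1.39. V-R had an excess of 3.18 minutes, and V-R, VI-L, VII-L and XII-L were the 4 ends above 2 minutes under each alternative tried, left-out time points included.

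The other delayed ends in B had excesses between 2.08 and 4.33 minutes: III-R, IV-R, VIII-L, I-L, XVI-R, VII-R, II-R, XI-R, XIV-R, XV-L, IX-L and XIV-L. Spared in B were X-R with -2.14 minutes, III-L with -2.13 and IX-R with -2.02, all just past the limit of -2. I-R stood just inside it with -1.89 minutes. None of the 3 spared ends kept its sign under all these alternatives. The remaining 12 ends lay within 2 minutes of the genome's delay.

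Under Pph3 depletion with SLD3 (C against A), both shares were near the background. Delayed were 7 of 31 ends (22.6%, against a background of 19.2%) and spared 3 (9.68%, against a background of 9.52%). The largest excesses were 5.05 minutes at VI-L and 4.48 minutes at both III-R and VII-L. Their ratios at 45 minutes were 1.78, 1.78 and 1.84 in A and 1.45, 1.46 and 1.55 in C, in the order VI-L, III-R, VII-L. IV-L, IV-R, XVI-R and I-L were delayed by an excess of 2.15 to 4.13 minutes. The least delayed were I-R with an excess of -2.85 minutes, IX-R with -2.76 and XIII-L just past the limit. I-R replicated at 27.6 minutes in C and 27.1 in A, and IX-R at 27.3 and 26.0 minutes. Both right ends were early in each strain. The 3 spared ends stayed below 0 under these alternatives. Against bins of the same timing decile 3 ends were delayed, VI-L, VII-L and XVI-R, and 1 was spared, VI-R with -2.21 minutes. I-R, IX-R and XIII-L then lay at -1.55, -1.27 and -1.36 minutes and lost the call. Of the 7 delayed ends III-R, IV-R and XVI-R stayed above 0 under all alternatives, although III-R and IV-R lay at 1.71 and 1.28 minutes against their deciles.

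With both changes (D against A), spared ends outnumbered delayed ones. Spared were 13 of 31 ends (41.9%, against a background of 34.1%) and delayed 6 (19.4%, against a background of 35.7%). The median excess was -1.19 minutes, with quartiles of -3.57 and 1.77, against a median of 0.13 minutes over the interior tiles. Of the 9 early ends in A, 6 were spared and none was delayed, while of the 17 late ends 6 were delayed and 5 spared. The same split was not made over the interior tiles, so it is not shown to be particular to ends. The spread of replication time over all bins was wider in D, with a standard deviation of 8.12 minutes against 5.57 in A. A further reference was the bins outside the ends in the same timing decile, by the mean replication time of B and C. Against it, 16 ends were spared, none was delayed and the median excess was -2.20 minutes. With scale factors common to the strains, 21 ends were spared, none was delayed and the median was -3.28 minutes. Background shares were not computed under either setting, so these counts cannot be set against the percentages above. With the midpoint of a bin's own range as the threshold, the median turned to 0.57 minutes, and with a threshold of 1.6, 10 ends were delayed.

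IX-R, X-R and III-L were the least delayed in D, with excesses of -7.58, -6.30 and -5.73 minutes. IX-R replicated at 26.0 minutes in A and 29.7 in D, and its ratio at 30 minutes was 1.90 in both A and C, 1.45 in B and 1.52 in D. X-R, which carries the cell wall genes DAN1 and DAN4 and was late in A at 36.1 minutes, replicated at 39.6 minutes in D and 39.3 in B. III-L replicated at 29.0 minutes in A and 35.4 in D. The median delay of D against B was -0.74 minutes at IX-R, 0.28 at X-R and 0.93 at III-L, while the genome was 4.52 minutes later. III-L, IX-R, X-R and X-L, whose excess was -3.25 minutes, were below -2 minutes under each alternative, left-out time points included.

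The other spared ends in D were I-R, VI-R, XI-L, XIII-R, XV-R, XII-R, XIII-L, II-L and XIV-R, between -5.18 and -2.14 minutes. The reference mattered for the early ends. Against bins of the same timing decile the value was 0.21 minutes for XV-R and -1.14 for XIII-R. It remained -3.39 minutes for IX-R, -4.45 for III-L, -7.18 for X-R and -8.57 for X-L. VI-R, the latest end in A, had an excess of -4.72 minutes and -8.95 against its decile.

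The most delayed ends in D were IV-L with an excess of 5.88 minutes, IV-R with 4.70 and XI-R with 4.13, followed by VI-L, XII-L and XIV-L. IV-L went from 39.6 minutes in A to 47.9 in B, to 46.5 in C and to 56.8 in D. The ratio of IV-R in D was 1.38 at 30 minutes, 1.33 at 40, 1.44 at 50 and 1.55 at 60, against 1.52 at 40 and 1.82 at 50 minutes in A. At 70 minutes, IV-R in D was still at 0.881 of its library median, the lowest of the 31 ends, with XI-R at 0.893. This slow rise passed close to 1.5 for a long time, and a threshold of 1.4 gave IV-R -3.02 minutes. None of the 6 delayed ends kept its sign under all alternatives, and leaving out minute 50 left 2 ends delayed in D while leaving out minute 45 gave 10.

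The deposited ratio did not rise steadily at every end. Between 30 and 40 minutes it fell at 12 of 31 ends in D, 11 of them late in A, at 7 ends in C, all late in A, at 1 end in B and at none in A. The same count was not made over the interior tiles, so the fall is not shown to be particular to ends. At VI-R, where the drop was deepest, it fell by 0.298 in C. Replication times of late ends in C and D were read across this dip by a monotone fit. Whether the dip moved them was not tested.

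**Figure D3:**
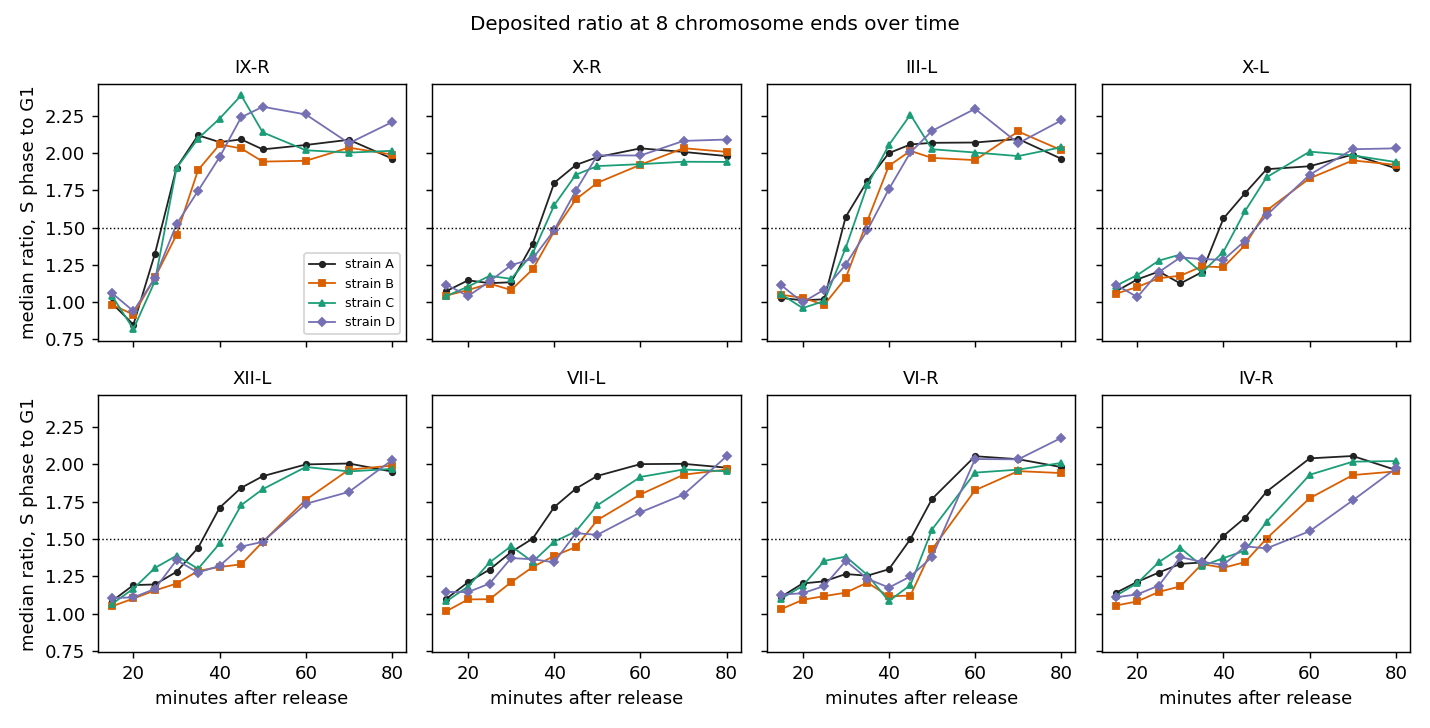
Median deposited ratio, S phase over G1 (y axis) against minutes after release (x axis) at 8 ends in strains A to D, 1 library per point, with the threshold of 1.5 dotted. IX-R, X-R, III-L and X-L (top) rise in D about as early as in B, XII-L and VII-L are held back in B, and IV-R in D is still at 1.55 at 60 minutes.

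**Figure D4:**
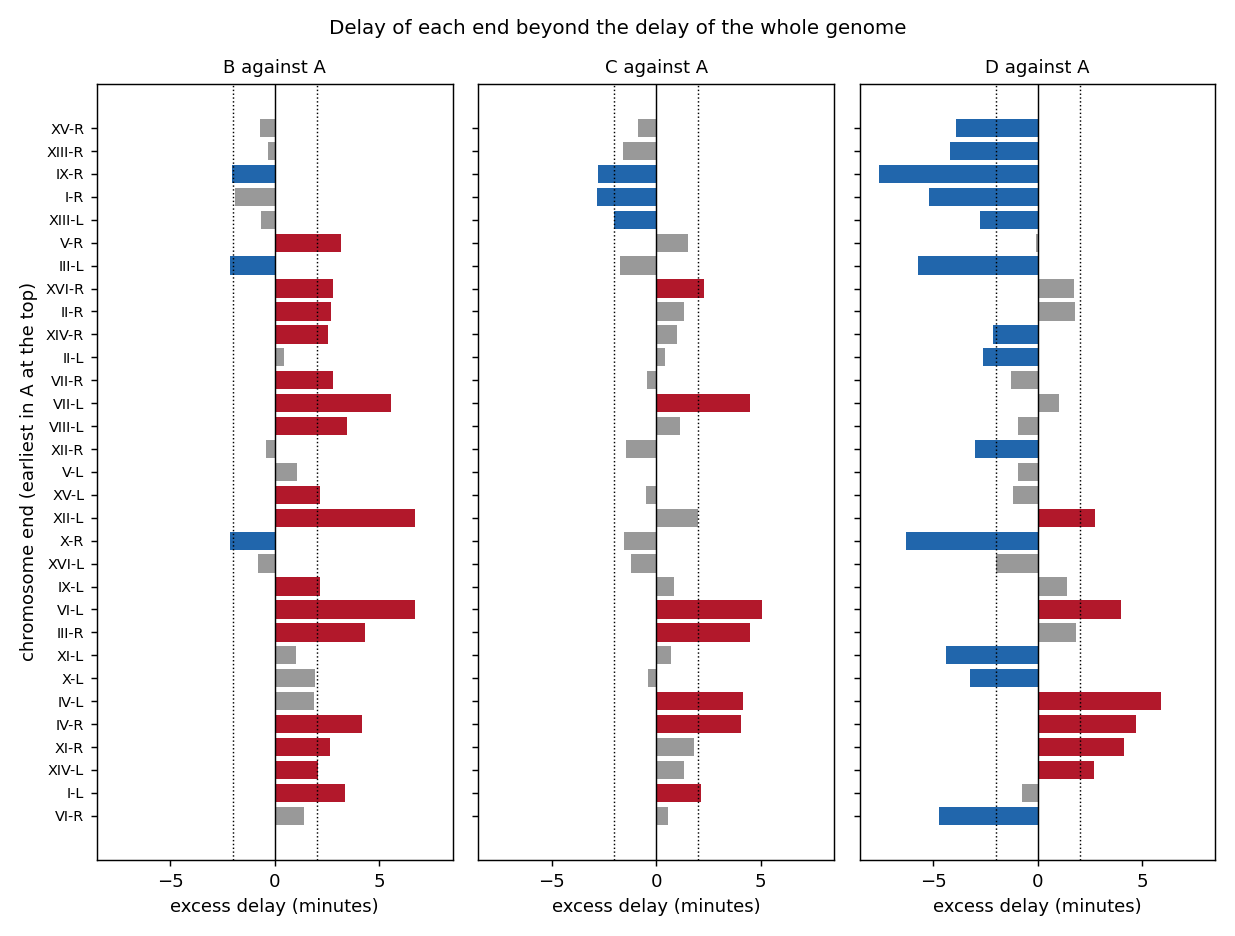
Excess delay in minutes (x axis) of 31 ends (y axis, earliest in A at the top) in B, C and D against A; bars above 2 minutes are red (16, 7 and 6 ends), bars below -2 minutes blue (3, 3 and 13 ends) and the others grey, with dotted lines at both limits. Red bars dominate in B and blue bars in D, with IX-R lowest in D at -7.58 minutes.

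Each change was also compared in cells that carried the other. D against B shares the libraries of B with the comparison of B against A, in which they enter with the opposite sign. When Pph3 was depleted in sld3-R(2A) cells (D against B), 20 of 31 ends were spared (64.5%, against a background of 22.3%) and 1, IV-L with 4.46 minutes, was delayed (3.23%, against a background of 30.6%). The value of IV-L reached -6.47 minutes under an alternative. The median excess was -3.29 minutes, against 0.17 over the interior tiles. VII-L had the lowest value, -7.18 minutes, followed by VI-R with -5.76 and X-L with -5.60. VI-R, VII-R, X-L, X-R and XI-L stayed below -2 minutes under each alternative, left-out time points included, and 16 of the 20 stayed below 0. At VII-L the median replication time was 46.5 minutes in B and 44.3 in D, while the genome was later in D. Its inner part, at 16 to 20 kb from the tip, was later in D, at 50.9 minutes against 46.3 in B. The excess of VII-L reached 1.42 minutes under an alternative and -0.45 with a time point left out.

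With sld3-R(2A) in Pph3-depleted cells (D against C), 14 ends were spared (45.2%, against a background of 24.7%) and 3 were delayed (9.68%, against a background of 27.8%), namely XII-L, IV-L and XIV-L. None of the 3 delayed ends kept its sign under all alternatives, and 10 of the 14 spared ends did. The median excess was -1.47 minutes, against 0.11 over the interior tiles. VI-R was lowest with -5.94 minutes. VII-L and III-R had the largest opposite values: VII-L stood at 5.54 minutes in B against A and -4.79 in D against C, and III-R at 4.33 and -3.45 minutes. At VII-L the second value turned to 1.09 by relative timing, to 2.19 minutes with the midpoint and to 0.19 minutes without minute 45. The opposite signs were lost there, while at III-R both signs were kept. The 2 effects of sld3-R(2A) across the 31 ends had an r of 0.37, against 0.78 over the interior tiles, and the 2 effects of Pph3 depletion an r of 0.29, against 0.83. Both were negative with common scale factors, at -0.388 and -0.555, and without minute 50, and reached 0.66 with the midpoint. Their size and sign depend on the processing.

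**Figure D5:**
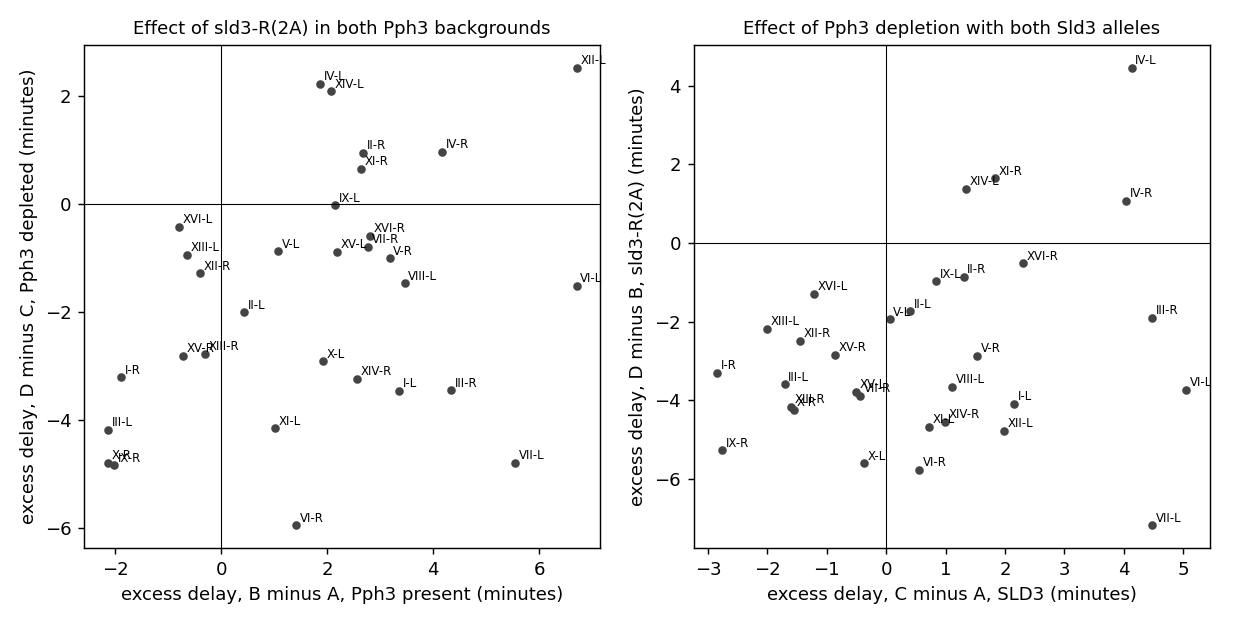
Excess delay in minutes of 31 ends; left, sld3-R(2A) with Pph3 present (B minus A, x axis) and depleted (D minus C, y axis); right, Pph3 depletion with SLD3 (C minus A, x axis) and with sld3-R(2A) (D minus B, y axis). With the deposited scale factors VII-L lies at 5.54 and -4.79 minutes on the left and at 4.48 and -7.18 minutes on the right, and most points lie below 0 on both y axes.

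The 2 ends of a chromosome could be far apart in time. On chromosome I the right end came first, with a right-minus-left value of -14.9 minutes in A and -22.8 in D. On chromosome IX the values were -11.2 in A and -19.8 in D, and on chromosome III the right end was later, by 8.83 and 12.5 minutes. On chromosome IV both ends were late and the difference was 0.17 minutes in A and -1.33 in D. On chromosome VI the right end was later by 7.44 minutes in A, 1.33 in B and 2.76 in C, and level with the left in D, at -0.36 minutes. Replication time in A bore no linear relation to the listed length of the chromosome (r of -0.03 over 31 ends). The same held for the tip beyond the outermost listed bin (r of 0.005), whose length at right ends was counted only to the last annotated gene.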

How the data were processed

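The authors deposited, for each of the 44 S-phase libraries, the ratio per 1-kb bin of S-phase reads to reads of the same strain's G1 library, multiplied by a scale factor for the library, per the file headers. How the factor was set is not given in the sources used here. The submitters' processing notes name Bowtie2 2.2.6, SAMtools 1.7.2, bedtools 2.26.0 and the build sacCer3. The tables hold ratios and no read counts, so depth is unknown and intervals that rest on depth are left out. Of the series' 72 samples, those of chromatin immunoprecipitation were not used here. W303 reads were placed on a reference of another strain background, which can misplace reads at repeated ends.

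Replication time used a 5-kb running mean with at least 3 bins, isotonic regression over the minutes and the crossing of a ratio of 1.5, and an end needed 5 bins with a value. The tips of 9 ends differed between tables, and the outermost bin listed in any table was taken. Differences were taken bin by bin before the median. Interior tiles needed 11 bins. Relative timing, an alternative free of the scale factors, is the area under the ratio over the library median. Its values are not minutes of delay, and the limit of 2 was applied to them on their own scale, also where a result is said to hold under each alternative. Genes came from RefSeq's annotation of the same build. The ends, limits and lists were chosen with earlier results of these data known. Ends described in full are the 4 earliest and 4 latest in A, the 3 most and 3 least delayed in B, C and D, and the 2 with the largest opposite effects of sld3-R(2A). With 1 library per strain and minute no test between strains was made. Calculations used Python 3.11.15, numpy 2.4.6 and pandas 2.3.3, figures matplotlib 3.10.9, and the steps were tested on simulated data. Alternatives changed the scale factors, denominator, smoothing, threshold, extent, reference, limit and time points. Timing deciles were set by the mean replication time of the strains outside a comparison, and their reference bins lay outside the ends.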

Additional observations from a re-analysis of the deposited data

Results flagged for a closer look

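At 7 points an end moved beyond 2 minutes in opposite directions, relative to the genome, under the same change in both backgrounds. The difference between the effects was not tested, and each effect rests on 1 library per strain and minute. For sld3-R(2A), the excess at VII-L was 5.54 minutes with Pph3 present and -4.79 with Pph3 depleted, a difference of -10.3 minutes. At III-R it was 4.33 and -3.45, a difference of -7.78. At I-L it was 3.36 and -3.46, a difference of -6.82. At XIV-R, with 5 bins, it was 2.57 and -3.23, a difference of -5.80. For Pph3 depletion, the excess at VII-L was 4.48 with SLD3 and -7.18 with sld3-R(2A), a difference of -11.7. At VI-L it was 5.05 and -3.74, a difference of -8.79, and at I-L 2.15 and -4.09, a difference of -6.24. Only III-R kept the signs of both effects under all alternatives. VII-L reached 2.19 in D against C and -2.77 in C against A, and I-L 1.25 and -2.18 in the same comparisons. VI-L reached -0.52 in C against A and 1.33 in D against B, and XIV-R -3.07 in B against A. Both contrasts use the same 4 strains, so the values of VII-L and I-L for one change are not separate from those for the other.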

How the results depend on the processing

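No paired analysis was possible because each strain and minute had 1 library, whose number only names it. Among the alternatives, the rule for tips listed in all tables and the difference of medians were chosen after seeing the data. Early ends in A and the median excess in C stayed within their tolerance in each. Relative timing gave 7 late ends in A. Common scale factors gave 10 delayed and 1 spared end in B, 0 delayed and 21 spared in D, a median excess in D of -3.28 minutes, r of -0.388 and -0.555 for the sld3-R(2A) and the Pph3 effects, and an excess in D of -0.20 at XI-R, -8.63 at IV-R and -4.65 at IV-L. Correction by the mean profile gave 9 delayed ends in B, 3 in D, a median of -2.47 in D, r of -0.129 and -0.253, and -3.95 at IV-R. The 15-minute denominator gave 8 delayed ends in B, a median of 0.66 in B and r of 0.55 and 0.49. Reference bins of the same timing decile gave 1 spared end in B, 3 delayed and 1 spared in C, 0 delayed in D, a median of -2.20 in D, r of 0.17 and 0.10, 0.39 at IX-R in B and -0.46 at XI-R in D. Relative timing gave 0 spared ends in B, 3 delayed and 5 spared in C, 1 delayed and 8 spared in D, r of 0.17 and 0.16, 0.42 at X-R and 0.64 at III-L in B, -0.52 at VI-L in C and 1.09 at VII-L in D against C. A threshold of 1.4 gave 5 spared ends in C, 2 delayed in D, a median of -2.68 in D, an r of 0.0423 for the Pph3 effects, -2.77 at VII-L in C and -3.02 at IV-R in D. A threshold of 1.6 gave 0 spared ends in B, 10 delayed in D and an r of 0.44 for the Pph3 effects. The midpoint between the lowest and highest value of a bin gave a median of 0.57 in D, an r of 0.66 for both effects and 2.19 at VII-L in D against C. The 9-kb mean gave 1 spared end in B. Ends of 10 kb gave r of 0.16 and 0.0641, ends of 30 kb 0.60 and 0.61, and the mean ratio of an end 0.12 and 0.0986. A limit of 1 minute gave 13 delayed and 8 spared ends in C and 11 delayed in D, and a limit of 3 minutes 8 delayed and 0 spared in B and 0 spared in C. The difference of medians gave 11 delayed ends in C. Leaving out each minute in turn gave 14 to 18 late and 7 to 9 early ends in A, 12 to 19 delayed and 1 to 3 spared in B, 7 to 9 and 2 to 4 in C, and 2 to 10 and 12 to 16 in D. Median excesses then ran from 1.479 to 2.58 in B, -0.0625 to 0.861 in C and -2.22 to -0.97 in D, and r from -0.0197 to 0.541 and from -0.186 to 0.495, both negative without minute 50. VII-L in D against C ran from -5.41 to 0.19, the latter without minute 45, and XI-R in D from -0.14, without minute 50, to 4.97. The cause of these shifts was not tested. Unknown depth limits all values, and the ends rest on 5 to 21 bins each.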

Other observations

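The tip of XII-L, singled out after its values were seen, was the stretch within 5 kb of a tip with the largest delay in B. It went from 32.7 minutes in A to 52.8 in B, to 38.9 in C and to 46.2 in D, so that B lay 20.2 minutes after A and D before B. In the other ends with such a stretch the delay of B against A was between 0.95 and 12.8 minutes. At III-L the same stretch replicated between 37.6 minutes, in C, and 39.5 minutes, in D, nearly level in the 4 strains. It rests there on the few listed bins next to the tip, which share a single 5-kb running mean.

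Gene families of the ends were counted in the listed bins and the tips beyond them. YRF1 genes, which encode the helicase of the subtelomeric Y' element, are annotated at 7 of the 31 ends, and these had a median replication time in A of 34.8 minutes (25.3 to 41.2), against 35.5 minutes over the 24 others. The 11 ends with a COS gene, a family of endosomal proteins, had a median of 34.6 minutes, and the 20 others 35.5. The 19 ends with a PAU gene, a family of cell wall mannoproteins, had 34.8 minutes, and the 12 others 35.8. The 6 ends with an AAD gene, a family of putative aryl-alcohol dehydrogenases, had 37.6 minutes, and the 25 others 33.8. The 5 ends with a THI, SNO or SNZ gene, families of vitamin synthesis, had 37.3 minutes, and the 26 others 34.7. IV-L, VI-L, X-R and XIV-L are in both the AAD group and this one, so these are not separate observations. The 6 ends with an HXT gene had 36.7 minutes, and the 25 others 34.6. The 7 ends with a MAL, IMA or MPH gene had 36.1 minutes, and the 24 others 34.7. IV-L and X-R belong to those groups as well. No test was made of any of these.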
